A study of Caenorhabditis elegans with 6 samples.

Results

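Transcript levels of 8 genes that build the apical surface of the worm intestine were examined in pools of whole adult Caenorhabditis elegans. The genes were chosen by name: act-5, erm-1 and eps-8, which encode brush border proteins, and ifb-2, ifc-2, ifd-1, ifd-2 and ifp-1, which encode intermediate filament proteins. Each name matched 1 row, so 8 of the 22407 genes with counts were members. RNA came from 3 libraries labelled gtr-1 RNAi and 3 labelled EV. Worms of the first group ate HT115 bacteria expressing RNAi against the 3'UTR of gtr-1, and those of the second ate HT115 carrying an empty vector (EV). All 6 libraries came from strain AM140 with the transgene rmIs132 [unc-54p::Q35::YFP], whose unc-54 promoter makes body wall muscle produce yellow fluorescent protein joined to a run of 35 glutamines. Both groups therefore carried a polyglutamine protein in muscle, and a strain without the transgene and isolated intestines were not analysed here. Parents and progeny were kept at 20 °C on the same bacteria, and generation 2 was harvested on day 6 of adulthood after daily removal of its offspring. The single comparison of the design was gtr-1 RNAi against EV.

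The intestine is a tube of epithelial cells whose inner face carries a brush border of microvilli. Each microvillus holds a bundle of actin filaments, tied to the membrane by ezrin, radixin and moesin proteins and trimmed and bundled by proteins such as EPS-8. Under the microvilli lies the endotube, a dense sheath of intermediate filaments that is anchored at the apical junctions and keeps the lumen in shape. Genes of this set are best known in the intestine, but act-5, erm-1 and ifc-2 also act at the lumen of the excretory canal, and erm-1 and eps-8 are used in other tissues. In bulk RNA from whole worms, fewer cells of a type and less RNA per cell cannot be told apart.

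The microvillar actin transcript was higher in every library labelled gtr-1 RNAi than in every EV library, while that of the main membrane linker, erm-1, differed by less than the spread between libraries. The filament genes did not move as a block: ifc-2 was higher without overlap, ifp-1 and ifd-1 lower without overlap, and ifb-2 and ifd-2 overlapped between the groups. The tests named in this paragraph called neither ifp-1 nor ifd-1. The edgeR quasi-likelihood test, fitted across 14683 genes with Benjamini-Hochberg adjustment, called none of the 8 members (0 up, 0 down) at a threshold of 0.05; it called 0% of all genes, and its smallest adjusted p anywhere was 0.112. At an unadjusted p under 0.05 it gave 2 members higher and 2 lower, against 12.9% and 15.3% of all genes. The DESeq2 Wald test called 2 members higher, act-5 and ifc-2, and 1 lower, eps-8; it called 6.66% of genes higher and 7.58% lower. limma-voom called 0 members and 0% of genes. In CPM, which are counts scaled to a common library total with TMM adjustment, the groups did not overlap for 2 members that were higher and 3 that were lower, against 16.6% and 19.6% of genes. The median log2 fold change was -0.067 over the members and -0.0025 over all genes tested.

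Total counts were between 33254426 and 41902475 per library, and the 8 members together took 0.0612% to 0.0672% of counts in libraries labelled gtr-1 RNAi and 0.0597% to 0.0614% in EV libraries. The targeted gene was not lower: gtr-1 had 20, 24 and 19 counts in gtr-1 RNAi replicates 1, 2 and 3, against 16, 25 and 20 in EV replicates 1, 2 and 3. Directions below are therefore those of the labels. One library stood apart from its group. The chi-square per degree of freedom between gtr-1 RNAi replicate 3 and EV replicate 1 was 5.15, the smallest of the 15 pairs, against 26.6 and 39.6 between gtr-1 RNAi replicate 3 and gtr-1 RNAi replicates 1 and 2. Between gtr-1 RNAi replicate 3 and EV replicates 2 and 3 it was 16.5 and 28.6. By this measure EV replicate 3 was thus not nearer to it than gtr-1 RNAi replicate 1 was. Member values are given with and without gtr-1 RNAi replicate 3. It was singled out from these same data, so p-values without it are descriptive and give no independent support. With any other single library left out, edgeR called no member. Whether the libraries of one label were separate cultures is not stated in the labels. The p-values therefore rest on the spread among these libraries, which may be technical.

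**Figure D1:**
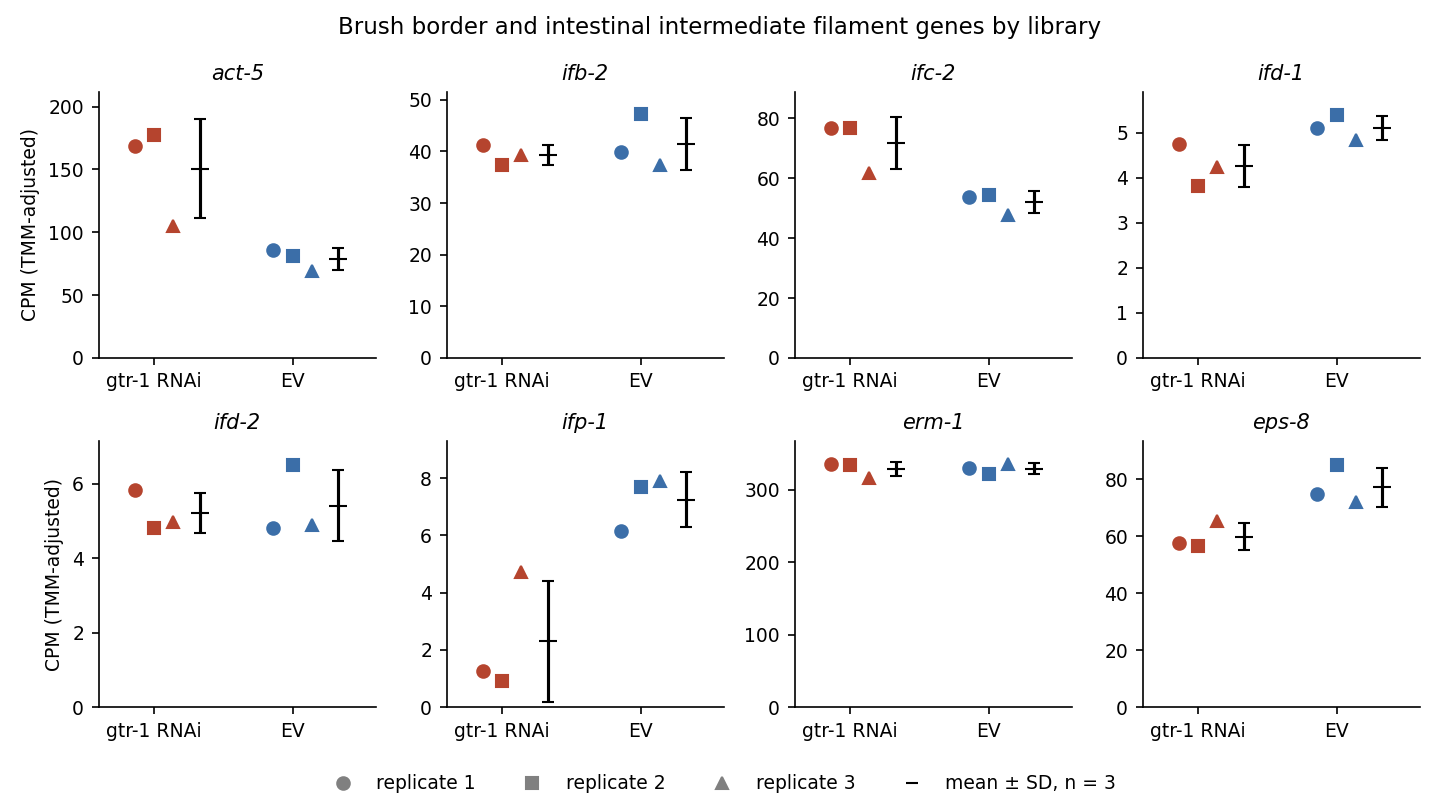
Level of each of the 8 genes in each library (y axis, CPM with TMM adjustment, from 0), libraries labelled gtr-1 RNAi at left in red and EV libraries at right in blue, with the mean ± SD of 3 libraries in black. Points of act-5 and ifc-2 labelled gtr-1 RNAi all sit above those of EV, those of ifd-1, ifp-1 and eps-8 all sit below, and gtr-1 RNAi replicate 3 (triangle) is the one nearest to EV for act-5, ifc-2, ifp-1 and eps-8.

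The gene act-5 (WBGene00000067, chromosome III, 13604412 to 13606066 of WBcel235, - strand, 3 exons) encodes the actin of the microvillar core. Its level was 169, 177 and 105 CPM in gtr-1 RNAi replicates 1, 2 and 3, against 86.1, 80.7 and 68.8 CPM in EV replicates 1, 2 and 3. The groups did not overlap, and gtr-1 RNAi replicate 3 lay between the others of its label and the EV libraries. The means were 151 ± 39.4 CPM under gtr-1 RNAi and 78.5 ± 8.85 CPM under EV (SD, n = 3 each), a fold of 1.92 in the fit. By edgeR the log2 fold change was 0.94 ± 0.23 SE with an adjusted p of 0.113. By DESeq2 it was 0.95 ± 0.24 SE with an adjusted p of 0.00279, and adjusted p ran from 6.41e-30 to 0.315 over the 24 alternative fits. DESeq2 called act-5 higher in 3 of the 6 fits that left out 1 library each, and 2.38% of all genes were called higher in at least 3; act-5 missed the threshold without EV replicate 3 and without either of gtr-1 RNAi replicates 1 and 2. Without gtr-1 RNAi replicate 3, the edgeR log2 fold change was 1.14 ± 0.09 SE (adjusted p = 0.000673). With any other single library left out, the edgeR adjusted p of act-5 ran from 0.157 to 0.315. The fold over the mean of EV, taken on the log scale, was 2.16 and 2.27 in gtr-1 RNAi replicates 1 and 2 and 1.35 in replicate 3. The summed level of 10 intestine markers was 1575 to 1933 CPM in libraries labelled gtr-1 RNAi and 1322 to 1707 CPM in EV libraries. Most of that sum came from cpr-6, with means of 783 CPM under gtr-1 RNAi and 512 CPM under EV, and asp-1, with 708 and 765 CPM. The part of intestine amount in the act-5 difference was not tested.

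The other actin genes were not called with all 6 libraries. Within the 5 actin genes, act-5 held 6.82%, 7.25% and 4.62% of the summed CPM per kilobase of exon in gtr-1 RNAi replicates 1, 2 and 3, against 3.79%, 3.28% and 3.03% in EV replicates 1, 2 and 3. The rest came from act-1, act-2, act-3 and act-4, which encode muscle and general actins. With all 6 libraries DESeq2 and edgeR called 0 of these 4 genes in either direction, 0 had an unadjusted edgeR p under 0.05, and their median log2 fold change was 0.033. Without gtr-1 RNAi replicate 3, both edgeR and DESeq2 called 1 of the 4 higher, and edgeR scaled on intestine markers called 1 lower. Of all genes, edgeR called 8.77% higher without that library and 17.2% lower with the marker scaling. The gene act-4 was at 825 ± 48.4 CPM under gtr-1 RNAi and 866 ± 87.7 CPM under EV (SD, n = 3 each). The actin genes resemble each other, and how reads shared between them were counted is not given in the sources used here, so the split between them is uncertain.

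The gene erm-1 (WBGene00001333, chromosome I, 5284026 to 5291604, - strand) encodes the worm's ezrin, radixin and moesin protein, which links apical membranes to actin. It was at 335, 333 and 317 CPM in gtr-1 RNAi replicates 1, 2 and 3, against 329, 321 and 336 CPM in EV replicates 1, 2 and 3. The ranges overlapped almost fully. The means were 328 ± 10.1 CPM under gtr-1 RNAi and 329 ± 7.50 CPM under EV (SD, n = 3 each). By edgeR the log2 fold change was -0.0018 ± 0.04 SE (adjusted p = 0.981), and it lay between -0.32 and 0.044 over all fits. Only 0.770% of genes tested had a smaller absolute log2 fold change.

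The gene eps-8 (WBGene00001330, chromosome IV, 14879484 to 14900653, + strand, 12 annotated transcripts) encodes a protein that caps and bundles actin filaments in microvilli. Its level was 57.8, 56.5 and 65.3 CPM in gtr-1 RNAi replicates 1, 2 and 3, against 74.8, 85.0 and 72.1 CPM in EV replicates 1, 2 and 3. The groups did not overlap, with gtr-1 RNAi replicate 3 again nearest to EV. The means were 59.9 ± 4.74 CPM under gtr-1 RNAi and 77.3 ± 6.83 CPM under EV (SD, n = 3 each). By edgeR the log2 fold change was -0.37 ± 0.08 SE (adjusted p = 0.112). By DESeq2 it was -0.36 ± 0.09 SE (adjusted p = 0.00195), with adjusted p from 3.62e-05 to 0.315 over the alternatives. DESeq2 called it lower in 5 of 6 fits with 1 library left out, the exception being that without gtr-1 RNAi replicate 1, and 0.539% of genes were called lower in at least 5. Without gtr-1 RNAi replicate 3 the edgeR log2 fold change was -0.43 ± 0.07 SE (adjusted p = 0.00343). With any other single library left out, the edgeR adjusted p of eps-8 ran from 0.140 to 0.315. Gene counts do not separate its transcripts.

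The gene ifc-2 (WBGene00002056, chromosome X, 642156 to 654904, - strand, 24 merged exons and 7 annotated transcripts) encodes a filament protein of the endotube and of the excretory canal. It had 76.9, 76.8 and 61.6 CPM in gtr-1 RNAi replicates 1, 2 and 3, against 53.7, 54.5 and 47.8 CPM in EV replicates 1, 2 and 3. All libraries labelled gtr-1 RNAi were above all EV libraries. The means were 71.8 ± 8.81 CPM under gtr-1 RNAi and 52.0 ± 3.64 CPM under EV (SD, n = 3 each), a fold of 1.38 in the fit. The edgeR log2 fold change was 0.46 ± 0.10 SE (adjusted p = 0.112). DESeq2 gave 0.48 ± 0.10 SE (adjusted p = 0.00053), with adjusted p from 1.57e-11 to 0.377 over the alternatives, and called it higher in 5 of 6 fits with 1 library left out, that without gtr-1 RNAi replicate 1 being the exception. At least 5 such calls were made for 1.17% of genes. Without gtr-1 RNAi replicate 3 the edgeR log2 fold change was 0.56 ± 0.06 SE (adjusted p = 0.000673). With any other single library left out, the edgeR adjusted p of ifc-2 ran from 0.140 to 0.315.

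The gene ifp-1 (WBGene00002067, chromosome X, 9675873 to 9680169, - strand, 10 exons) encodes another filament protein of the intestine and had the widest difference of the 8. It was counted 45, 36 and 193 times in gtr-1 RNAi replicates 1, 2 and 3, against 232, 304 and 271 times in EV replicates 1, 2 and 3. In CPM these were 1.27, 0.903 and 4.73 under gtr-1 RNAi, against 6.16, 7.70 and 7.91 under EV. Replicates 1 and 2 labelled gtr-1 RNAi were at 0.176 and 0.125 times the EV mean on the log scale, and replicate 3 at 0.655 times. The means were 2.30 ± 2.11 CPM under gtr-1 RNAi and 7.26 ± 0.952 CPM under EV (SD, n = 3 each). Because of this spread the edgeR log2 fold change of -1.65 carried an SE of 0.63 (adjusted p = 0.165), and DESeq2 did not call it (-1.65 ± 0.71 SE, adjusted p = 0.0995, from 3.07e-23 to 0.366 over the alternatives). With any single library other than gtr-1 RNAi replicate 3 left out, the edgeR adjusted p of ifp-1 ran from 0.231 to 0.366. Without gtr-1 RNAi replicate 3 the edgeR log2 fold change was -2.74 ± 0.22 SE (adjusted p = 0.000306). That fit called 2 members higher, act-5 and ifc-2, and 2 lower, eps-8 and ifp-1, against 8.77% of genes called higher and 15% called lower.

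The remaining filament genes differed by less than or about as much as their libraries. The gene ifb-2 (WBGene00002054, chromosome II, 5750188 to 5754140, + strand) encodes a filament protein needed for the endotube. It was at 41.3, 37.4 and 39.2 CPM in gtr-1 RNAi replicates 1, 2 and 3, against 39.9, 47.1 and 37.3 CPM in EV replicates 1, 2 and 3, and the groups overlapped (edgeR log2 fold change -0.078 ± 0.09 SE, adjusted p = 0.598). The gene ifd-1 (WBGene00002057, chromosome X, 8820703 to 8824448, - strand) had 4.75, 3.81 and 4.24 CPM under gtr-1 RNAi and 5.10, 5.39 and 4.84 CPM under EV. These did not overlap, but the gap between 4.75 and 4.84 CPM was small and the edgeR test did not call it (log2 fold change -0.26 ± 0.14 SE, adjusted p = 0.237). The gene ifd-2 (WBGene00002058, chromosome X, 813854 to 815929, - strand) had 5.82, 4.82 and 4.97 CPM under gtr-1 RNAi and 4.81, 6.51 and 4.90 CPM under EV, with overlap (log2 fold change -0.057 ± 0.16 SE, adjusted p = 0.843). It lies 9584 bases from gtr-1, the targeted gene, on the same chromosome. No exon of another gene overlaps the exons of the other 7 members in the annotation; those of eps-8 overlap 48 bases of small RNA genes on its strand and 16 bases on the opposite strand.

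**Figure D2:**
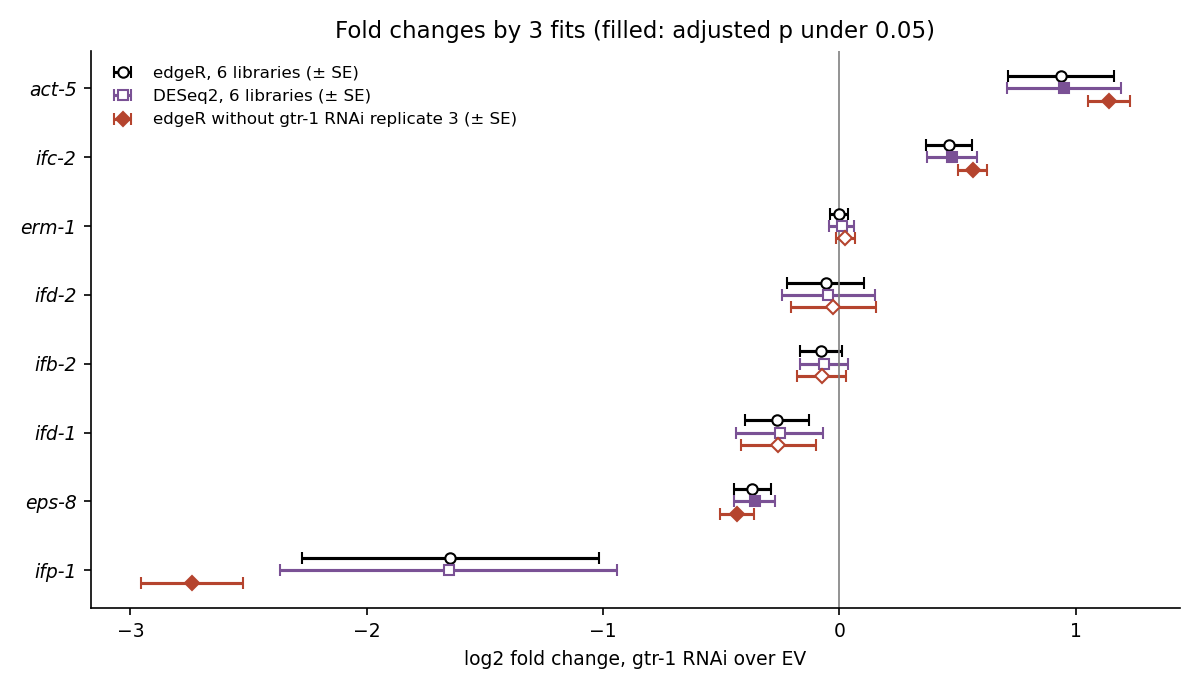
Log2 fold change of gtr-1 RNAi over EV (x axis) with its SE for each gene (y axis), by edgeR (black circles), DESeq2 (purple squares) and edgeR without gtr-1 RNAi replicate 3 (red diamonds). Filled symbols have an adjusted p under 0.05; DESeq2 called act-5, ifc-2 and eps-8, and edgeR called these and ifp-1 when that library was left out.

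The summed filament message overlapped between the groups, and so did the share of ifd-2 in it, while the shares of ifb-2, ifc-2, ifd-1 and ifp-1 did not. Per kilobase of merged exons, the 5 filament members summed to 43.8, 40.4 and 40.2 CPM per kilobase in gtr-1 RNAi replicates 1, 2 and 3, against 39.9, 45.7 and 37.9 in EV replicates 1, 2 and 3. The ranges overlapped, with means of 41.5 ± 2.03 under gtr-1 RNAi and 41.2 ± 4.04 under EV (SD, n = 3 each). Of this sum ifb-2 made up 48.5% to 51.2% under gtr-1 RNAi and 51.5% to 54.1% under EV, and ifd-1 4.89% to 5.62% under gtr-1 RNAi and 6.13% to 6.64% under EV. The share of ifc-2 was 35.02%, 37.9% and 30.6% in gtr-1 RNAi replicates 1, 2 and 3, against 26.9%, 23.8% and 25.1% in EV replicates 1, 2 and 3. The share of ifp-1 was 1.14%, 0.875% and 4.61% under gtr-1 RNAi, against 6.05%, 6.60% and 8.17% under EV. The ranges of ifc-2 and of ifp-1 lay furthest apart. The ratio of ifc-2 to ifb-2 was 0.696 ± 0.0926 under gtr-1 RNAi and 0.480 ± 0.0367 under EV. These shares were computed after the values of the genes had been seen and are given without a test. Another filament gene described in the intestine, ifc-1, was not among the 8; it was at 1.34 ± 0.350 CPM under gtr-1 RNAi and 2.24 ± 0.576 CPM under EV (edgeR log2 fold change -0.75 ± 0.28 SE, adjusted p = 0.139).

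**Figure D3:**
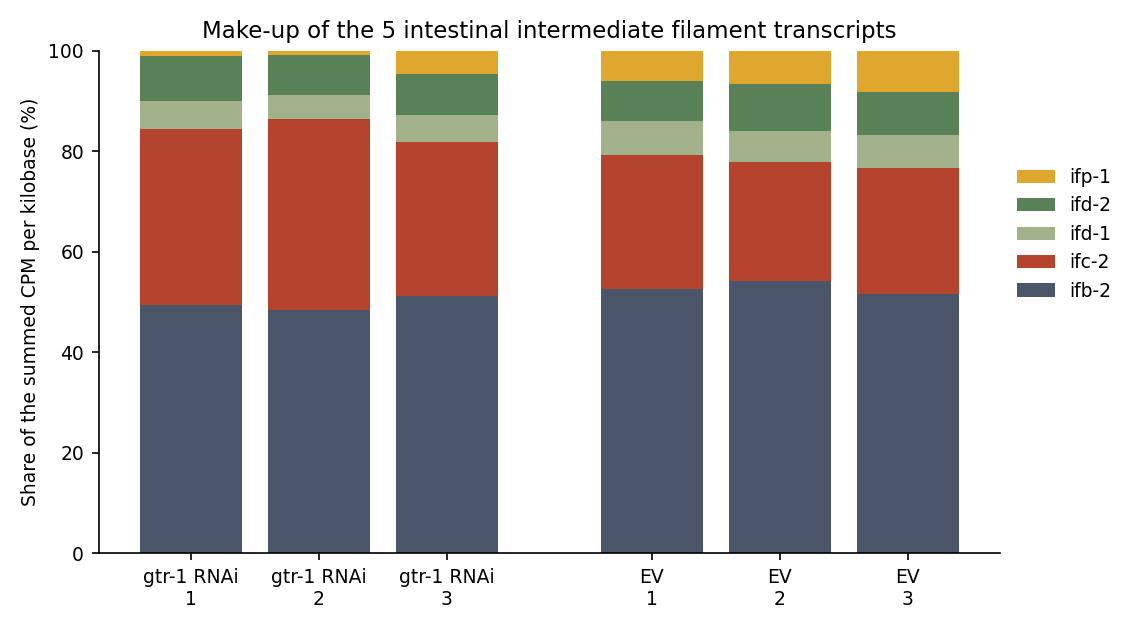
Share of each of the 5 filament genes in their summed CPM per kilobase (y axis, percent) for each library (x axis, labelled gtr-1 RNAi at left, EV at right). The ifc-2 block runs from 30.6% to 37.9% under gtr-1 RNAi and from 23.8% to 26.9% under EV, and the ifp-1 block from 0.875% to 4.61% under gtr-1 RNAi and from 6.05% to 8.17% under EV.

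Ratios within a library do not depend on how libraries are scaled to each other. On the length-scaled level, the log2 ratio of each of the other 7 members to act-5 was lower in every library labelled gtr-1 RNAi than in every EV library. For erm-1 the ratio of levels had log2 values of 0.046, -0.030 and 0.65 in gtr-1 RNAi replicates 1, 2 and 3, against 1.00, 1.05 and 1.35 in EV replicates 1, 2 and 3. The difference of mean log2 ratios was -0.91 for erm-1, -1.27 for eps-8, -0.98 for ifb-2, -0.45 for ifc-2, -1.17 for ifd-1, -0.95 for ifd-2 and -2.94 for ifp-1. The exact two-sided permutation test gave p = 0.1 for each, the smallest p that 3 libraries against 3 allow, and 0.1 after adjustment over the 7 ratios. All 7 share act-5 as their denominator, so they are not independent. Of the members, act-5 also had the highest log2 fold change (0.94 by edgeR), which lowers every ratio to it. For erm-1, at -0.0018 by edgeR, the lower ratio restates the level of act-5. The ratios are therefore no separate support for a difference in act-5 or in the other members.

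The order of levels per kilobase was nearly the same in both groups. Under gtr-1 RNAi, erm-1 came first at 135 ± 4.16 CPM per kilobase and act-5 next at 118.5 ± 31.0, and their ranges overlapped. Under EV, erm-1 was at 135 ± 3.08 and act-5 at 61.8 ± 6.97 CPM per kilobase, without overlap. They were followed in both groups by ifb-2, eps-8 and ifc-2. Under gtr-1 RNAi, ifb-2 was at 20.6 ± 1.03 CPM per kilobase, and eps-8 at 15.8 ± 1.25 overlapped ifc-2 at 14.3 ± 1.76. Under EV, ifb-2 at 21.7 ± 2.68 overlapped eps-8 at 20.4 ± 1.80, and ifc-2 was at 10.4 ± 0.726. The lowest were ifd-2, ifd-1 and ifp-1, between 0.901 and 3.44 CPM per kilobase under gtr-1 RNAi and between 2.65 and 3.57 under EV; ifp-1 was last under gtr-1 RNAi, whereas under EV its mean stood above that of ifd-1 and their ranges overlapped. With the longest transcript in place of merged exons, eps-8 stood above ifb-2 under EV.

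**Figure D4:**
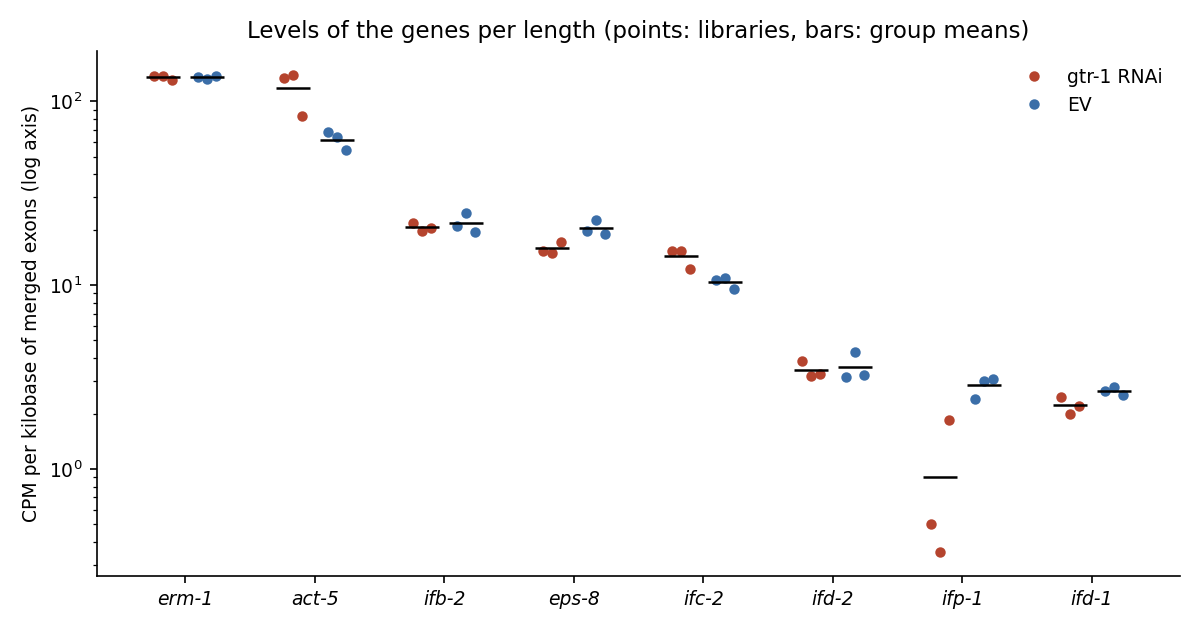
Levels of the 8 genes per kilobase of merged exons (y axis, CPM per kilobase, log axis), one point per library, libraries labelled gtr-1 RNAi left of EV for each gene, bars at group means. erm-1 has the highest means in both groups, and act-5 comes level with it in gtr-1 RNAi replicates 1 and 2.

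For each member the nearest other gene over the 6 libraries was taken. Likeness was measured as the root mean square difference of centred log2 CPM among 10644 genes with a mean log2 CPM over 1, and it is a description of 6 libraries in which many genes vary together. The nearest of so many candidates is close by selection, and no baseline was computed. The distance also depends on a member's own spread (SD of log2 CPM 0.035 for erm-1 and 1.35 for ifp-1). Distances are therefore not compared between members. The nearest gene was F19B2.5 for act-5 (0.038), nspg-6 for ifc-2 (0.031), C50B6.7 for eps-8 (0.026) and lpr-6 for ifp-1 (0.062). F19B2.5 was at 88.1, 96.7 and 56.8 CPM in gtr-1 RNAi replicates 1, 2 and 3, against 44.0, 41.5 and 34.98 CPM in EV replicates 1, 2 and 3. The gene lpr-6 was at 2.37, 1.63 and 8.06 CPM under gtr-1 RNAi, against 10.4, 12.9 and 12.7 CPM under EV. Among the steadier members, the nearest were npp-3 for erm-1 (0.0041), serp-1.2 for ifb-2 (0.031), F27D9.2 for ifd-1 (0.023) and asp-1 for ifd-2 (0.041).

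Genes that work around the brush border were read from lists, and with all 6 libraries, TMM scaling and no block edgeR called 0 genes of each list. With all 6 libraries DESeq2 called 6.66% of all genes higher and 7.58% lower. These are the shares to hold beside the list counts here and below. Of 22 genes of apical junctions, polarity and the cell cortex, DESeq2 called 0 higher and 11 lower (median log2 fold change -0.21 by edgeR). The 11 were sma-1, spc-1 and unc-70, which encode spectrins, crb-1, zoo-1, nfm-1, jac-1, let-413, ajm-1, afd-1 and dlg-1. By the fixed rule the lowest p values were those of jac-1, a p120 catenin at 52.7 ± 4.11 CPM under gtr-1 RNAi and 65.3 ± 3.24 CPM under EV (edgeR log2 fold change -0.31 ± 0.06 SE, adjusted p = 0.112), and of nfm-1, a merlin homologue at 18.6 ± 1.47 against 24.2 ± 1.02 CPM (-0.38 ± 0.08, adjusted p = 0.112). The widest of the 11 was dlg-1, the junctional scaffold that binds AJM-1, at 71.4, 53.9 and 126 CPM in gtr-1 RNAi replicates 1, 2 and 3, against 151, 173 and 230.0 CPM in EV replicates 1, 2 and 3; it was picked after its values were seen. Leaving out a library changed the count of 11. It was 0, 5 and 12 when gtr-1 RNAi replicates 1, 2 and 3 were dropped in turn. It was 10, 7 and 3 when EV replicates 1, 2 and 3 were. The number of all genes that DESeq2 called, higher or lower, also changed widely between these fits, as given in the last section. The share of all genes in each such fit is not given here. List counts with a library left out, here and below, therefore describe the fits and are not results about a list. The polarity gene par-3 was at 496 ± 27.5 CPM under gtr-1 RNAi and 450.4 ± 12.0 CPM under EV and was not called by either tool.

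Genes of actin assembly and of the endotube scaffold gave few calls. Of 25 actin assembly and bundling genes DESeq2 called 0 higher and 1 lower, the formin gene fhod-1, at 29.8 ± 0.993 CPM under gtr-1 RNAi and 37.3 ± 2.41 CPM under EV (edgeR log2 fold change -0.32 ± 0.06 SE, adjusted p = 0.112); the list's median was 0.010. With 1 library left out, DESeq2 called from 0 to 1 of this list lower, 0 of it without EV replicate 3 and without either of gtr-1 RNAi replicates 1 and 2, and it called 2 higher without gtr-1 RNAi replicate 3. The plastin gene plst-1, for an actin bundler, was at 188 ± 6.72 CPM under gtr-1 RNAi and 173 ± 8.20 CPM under EV, and the class I myosin gene hum-5 at 74.5 ± 7.39 against 64.9 ± 2.59 CPM; neither was called. Of 3 endotube regulators, ifo-1, bbln-1 and sma-5, DESeq2 called 0 (median -0.17), and 1 was lower at an unadjusted edgeR p under 0.05. The organiser gene ifo-1 was at 24.7 ± 1.19 CPM under gtr-1 RNAi and 27.7 ± 2.72 CPM under EV. Of 6 other intermediate filament and lamin genes DESeq2 called 0 higher and 1 lower, ifa-4 (edgeR log2 fold change -0.36 ± 0.13 SE, adjusted p = 0.139; median of the list -0.17). With 1 library left out, DESeq2 called 2 of this list higher and 2 lower without gtr-1 RNAi replicate 3, and 0 in each of the other 5 fits. The pattern of ifp-1 recurred in ifa-3, picked after its values were seen, at 2.68, 1.45 and 7.81 CPM in gtr-1 RNAi replicates 1, 2 and 3, against 9.22, 13.1 and 11.03 CPM in EV replicates 1, 2 and 3.

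Transporters of the apical membrane had the highest median among the lists of this surface, 0.47. DESeq2 called 3 of 8 higher and 1 lower. The genes pept-1, nhx-2 and vha-6 of this list are also among the intestine markers below, so the counts of these lists are not separate. The haem transporter gene hrg-4 was at 11.3 ± 5.004 CPM under gtr-1 RNAi and 3.58 ± 0.490 CPM under EV (edgeR log2 fold change 1.66 ± 0.35 SE, adjusted p = 0.112). The P-glycoprotein gene pgp-3 was at 20.8 ± 3.99 against 14.5 ± 1.39 CPM (0.52 ± 0.15, adjusted p = 0.113). The vacuolar ATPase gene vha-6 was the other called higher, at 190, 173 and 120 CPM in gtr-1 RNAi replicates 1, 2 and 3, against 114, 109 and 94.8 CPM in EV replicates 1, 2 and 3. The divalent metal transporter gene smf-3 was lower by DESeq2, at 5.55 ± 1.68 CPM under gtr-1 RNAi and 9.06 ± 1.78 CPM under EV (-0.71 ± 0.25, adjusted p = 0.138 by edgeR). With 1 library left out, DESeq2 called 1 transporter lower without gtr-1 RNAi replicate 3 and 0 lower in the other 5 fits. Of 13 genes of apical trafficking and sphingolipid synthesis, DESeq2 called 3 higher, acs-1, let-767 and sptl-1, and 0 lower (median 0.020). The acyl-CoA synthetase gene acs-1 was at 232 ± 70.5 CPM under gtr-1 RNAi and 109 ± 22.4 CPM under EV (1.09 ± 0.28, adjusted p = 0.118 by edgeR). With 1 library left out, DESeq2 called from 1 to 4 of the transporters and from 0 to 4 of the trafficking genes higher.

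Markers of the intestine, which include pept-1, nhx-2 and vha-6 of the transporter list, were read beside the members. Of the 10, none was at 0, and DESeq2 called 4 higher, vha-6, pho-1, mtl-2 and cpr-6, and 0 lower (median log2 fold change 0.23). With 1 library left out, DESeq2 called from 0 to 5 of them higher. The acid phosphatase gene pho-1 was at 11.3 ± 3.07 CPM under gtr-1 RNAi and 5.38 ± 1.72 CPM under EV, and the aspartyl protease gene asp-1 at 708 ± 55.5 against 765 ± 157 CPM. When libraries were scaled on the 10 markers, the median of all genes moved by -0.31 log2, edgeR called 1 member higher and 1 lower (1.45% and 17.2% of genes), and act-5 was at 0.61 ± 0.14 SE (adjusted p = 0.00539). In that fit eps-8 was at -0.66 ± 0.14 SE (adjusted p = 0.00353), ifc-2 at 0.15 ± 0.14 SE (adjusted p = 0.377) was not called, and erm-1 was at -0.32, about the shift of all genes. Of 8 excretory canal markers, none at 0, DESeq2 called vha-5 higher and exc-4, exc-5, exc-6 and exc-9 lower, with sums of 151 to 160 CPM under gtr-1 RNAi and 151 to 161 CPM under EV. Without gtr-1 RNAi replicate 3 DESeq2 called 4 canal markers lower, and it called 0 lower in each of the other fits with 1 library left out. The part of either tissue's amount in the member values was not tested.

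Markers of other tissues, none of which was at 0, were read in the same way. DESeq2 called 0 in either direction among 12 body wall muscle, 7 pharynx, 8 epidermis and 11 neuron markers. Their median log2 fold changes were 0.20, -0.21, 0.66 and -0.18. In the epidermis list DESeq2 gave no adjusted p for bli-1 (0.716 CPM under gtr-1 RNAi, 0.243 under EV) and rol-6 (0.404 and 0.292), so these could not be called. Of that list 6 had positive log2 fold changes by edgeR and 2 negative, elt-3 (-0.33) and lin-26 (-0.076). At an unadjusted edgeR p under 0.05, 1 of these muscle, pharynx, epidermis and neuron markers was higher, in the epidermis list. At the same p 6 were lower, 3 of them in the neuron list. Over all genes 12.9% were higher and 15.3% lower, and the share lower among these markers was about that of all genes. Of 12 germline and oocyte markers DESeq2 called 3 higher, spn-4, pos-1 and mex-5 (median 0.12). The summed level of this list was 7298 to 7945 CPM under gtr-1 RNAi and 6783 to 7107 CPM under EV. With 1 library left out, DESeq2 called 1 to 7 of the list higher. The germline list bears on erm-1, which is also used in that tissue. Summed muscle markers were at 2133 to 2523 CPM under gtr-1 RNAi and 1546 to 2393 CPM under EV, with EV replicate 3 lowest.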

How the data were processed

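Per the labels' protocols, RNA from pools of whole worms was made into stranded mRNA libraries. The submitters' processing notes name STAR, HTSeq and the build WBcel235; not given in the sources used here are versions, annotation release and strand setting. All tests used the deposited counts (whole numbers per gene, not normalized). The normalized values, a signal in the deposited table, equal counts divided by 1 factor per library and were not used. Column headers of the gtr-1 RNAi libraries were matched to titles by the letters GT and the last digit. Exons, coordinates and lengths come from the Ensembl annotation of WBcel235.

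All 6 libraries entered 1 fit without covariate: edgeR 4.0.16 quasi-likelihood F test, robust, after filterByExpr, with TMM factors (R 4.3.3), adjusted over 14683 genes at a threshold of 0.05. The SE given for edgeR is the absolute log2 fold change divided by the square root of the F statistic. That for DESeq2 is the one its model reports, so the SEs of the tools are not the same measure. DESeq2 1.42.0 on all genes with a count and limma 3.58.1 were alternatives. All 8 members passed the filter. Genes outside the members were named by rule: up to 2 per list and direction with the smallest edgeR p; others named are said to be DESeq2 calls or picked later. Of 147 list genes, 146 matched a name. Some genes stand in 2 lists. The members and lists were chosen with earlier results of these data known. The fits were also run on simulated data with the same spread setting for every gene and no outlying library. That run checks the code and not how the tests behave on these libraries. Depth limits the precision of genes with few counts, such as gtr-1. For ifp-1 the edgeR SE was 0.63 with all 6 libraries and 0.22 without gtr-1 RNAi replicate 3.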

Additional observations from a re-analysis of the deposited data

How the results depend on the processing

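By edgeR, 0 genes and 0 members were called with DESeq2 size factors, library size alone, a filter of 10 counts in 3 libraries or no filter. The same held without robust estimation or with the 10 most abundant genes left out, and limma-voom also called 0 of each. A threshold of 0.1 was applied only to the main edgeR fit, where it gave 0 of each. Some members were under 0.1 in other fits. By limma-voom the adjusted p was 0.0823 for each of act-5, ifc-2, ifp-1 and eps-8. By edgeR without a filter it was 0.0753 for eps-8 and 0.0900 for ifc-2. Scaling on the intestine markers gave 213 genes higher and 2529 lower, with 1 member each way. DESeq2 gave 853 and 971, with 2 members higher and 1 lower. limma-voom with sample quality weights gave 2359 and 3178 (16.1% and 21.6% of genes), with 2 members each way. The replicate numbers are shared between groups, and whether they pair the libraries is not known from the labels. The correlations of their deviations were 0.240, -0.107 and 0.197, too few values to settle it. With the replicate block, edgeR called 467 higher and 492 lower (3.18% and 3.35% of genes), with 2 members higher, act-5 and ifc-2, and 0 lower; DESeq2 with the replicate block called 736 and 935 (5.41% and 6.87%), with 2 members each way. With 1 library left out, edgeR called from 0 to 1308 genes higher and from 0 to 2236 lower, all of them without gtr-1 RNAi replicate 3, and from 0 to 2 members each way. DESeq2 called from 99 to 1555 higher and from 48 to 1999 lower, with 0 to 2 members each way. act-5, ifc-2, eps-8, ifp-1 and ifd-1 kept the sign of their log2 fold change in all 24 alternative fits. The uncalled value of erm-1 turned positive in 11, at 0.0042 with DESeq2 size factors, 0.0019 without a filter, 0.0095 by DESeq2, 0.034 with sample quality weights, 0.0091 by DESeq2 with the replicate block, and from -0.015 to 0.044 with 1 library left out. Those of ifb-2 ran from -0.15 to 0.032 and of ifd-2 from -0.14 to 0.11 with 1 library left out. All ratios to act-5 kept their sign. The causes of these differences were not tested. Groups of 3 libraries are too small for a test of single outlying libraries.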
